A study of Mus musculus with 4 samples.

Results

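Interleukin-2 (IL-2) and the receptors built around the common gamma chain were examined in bulk RNA sequencing of mouse T cells. The members were chosen by gene symbol and not by a rule on measured values, though with earlier results of these data known. They were the cytokine genes Il2 and Il15 and 8 receptor chain genes, Il2ra, Il2rb, Il2rg, Il4ra, Il7r, Il9r, Il15ra and Il21r. All 10 were found among 50600 genes of the count tables, of which 21764 are protein-coding. The single group consisted of 4 libraries of primary T cells from C57BL/6NJ mice, numbered by the labels as biological replicates 1 to 4, with no treatment, genotype or second group named and with age and sex not recorded. The file headers described each sample as bulk activated cells at 72 h under a name starting with mmTh0. The labels gave 1 donor identifier for all 4 and did not say whether the libraries came from separate animals or cultures, while Xist, the RNA of X inactivation, differed widely between them (332, 150.1, 0.877 and 0.392 TPM in replicates 1 to 4). The spread and p-values below measure differences between these libraries, whose source could not be settled from the labels.

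IL-2 is the growth factor that activated T cells make and take up themselves. The alpha chain encoded by Il2ra (CD25) captures it, and the beta chain (Il2rb) and the common gamma chain (Il2rg) pass the signal on through the kinases JAK1 and JAK3 to the transcription factor STAT5. The gamma chain is also used by the receptors for IL-4, IL-7, IL-9, IL-15 and IL-21, so the ligand-specific chains Il4ra, Il7r, Il9r and Il21r depend on it as partner. IL-15 shares Il2rb and Il2rg with IL-2 and is usually presented in trans by its own alpha chain, Il15ra, on myeloid and stromal cells.

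The libraries held 49613182 to 94222415 counts, a ratio of 1.9, and each receptor chain had 612 or more counts in each library. T-cell markers were abundant (8 of 9 listed genes reached 1 TPM in every library, against 49.4% of protein-coding genes). Cd4 stood at 1056 ± 62.8 TPM, and of the CD8 chain genes Cd8a at 0.190 ± 0.0957 TPM and Cd8b1 at 15.8 ± 2.38 TPM (mean ± SD, n = 4). TPM is the count divided by gene length and scaled to the same total in every library, which allows genes to be compared. The summed TPM of marker genes ran from 3.30 to 4.27 over the libraries for 6 macrophage and monocyte genes, from 3.02 to 4.41 for 4 dendritic cell genes, from 4.27 to 7.27 for 4 natural killer and innate lymphoid genes and from 3.27 to 5.08 for 5 B-cell genes. It ran from 0.127 to 0.506 for 4 mast cell genes, from 0 to 0.0354 for 3 neutrophil genes and from 0.788 to 1.54 for 4 stromal genes.

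The promoter windows of the most abundant member, Il2, and of the tandem alpha chain genes Il2ra and Il15ra are shown because Il2 leads the family and the tandem genes differ widely in level. Each window runs from 250 bases before to 50 bases after an annotated start (RefSeq, GRCm38.p6, which is the mm10 assembly), read 5′ to 3′ on the gene's strand. Capitals mark GGAAA, the core bound by NFAT factors, or its reverse complement TTTCC. The Il2 window is chr3:37125905-37126204 on the minus strand, the Il2ra window is chr2:11642542-11642841 on the plus strand, and the Il15ra window, the first of 2 listed for that gene, is chr2:11705043-11705342 on the plus strand.
Il2: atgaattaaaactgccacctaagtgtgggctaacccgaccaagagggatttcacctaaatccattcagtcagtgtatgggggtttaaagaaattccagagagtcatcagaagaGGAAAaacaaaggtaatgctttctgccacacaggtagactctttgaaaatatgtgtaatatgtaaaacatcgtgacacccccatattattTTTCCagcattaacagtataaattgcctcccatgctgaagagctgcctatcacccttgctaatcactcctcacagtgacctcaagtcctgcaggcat
Il2ra: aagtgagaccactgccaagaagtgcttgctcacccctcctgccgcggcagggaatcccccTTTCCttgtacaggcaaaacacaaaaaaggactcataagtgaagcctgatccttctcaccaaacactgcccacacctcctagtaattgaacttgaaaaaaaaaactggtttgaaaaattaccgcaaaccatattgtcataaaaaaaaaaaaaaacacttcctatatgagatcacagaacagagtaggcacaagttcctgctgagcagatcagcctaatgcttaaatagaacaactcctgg
Il15ra: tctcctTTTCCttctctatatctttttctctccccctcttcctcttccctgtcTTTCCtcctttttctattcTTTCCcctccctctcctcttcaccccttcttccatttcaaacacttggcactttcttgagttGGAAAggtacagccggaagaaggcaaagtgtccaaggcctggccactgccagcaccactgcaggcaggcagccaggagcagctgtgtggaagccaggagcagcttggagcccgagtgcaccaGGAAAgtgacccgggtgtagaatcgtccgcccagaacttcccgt

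Windows were listed for 8 of the 10 members, 9 windows in all. Both strands were searched for GGAAA, for the AP-1 motif TGANTCA, for the STAT motif TTCNNNGAA and for TATAAA. No motif contains another. GGAAA occurred in 6 of the 9 windows. In the Il2 window GGAAA began 137 bases and its reverse complement 47 bases upstream of the start, and TATAAA began 31 bases upstream. Of all 32851 mouse windows, 61.3% held at least 1 GGAAA core, 26.7% at least 2 and 13.6% a TATAAA. The Il2ra window held 1 core, 190 bases upstream. The Il15ra window shown held 5 cores, the most of the 9 windows searched, with 1 of them downstream of the start. Of all windows 0.728% held 5 or more, a share not corrected for picking the highest window. The second Il15ra window had no core and held TGANTCA 30 bases upstream, a motif found in 7.81% of windows. TTCNNNGAA occurred in the Il7r window alone among the members, against 8.30% of all windows. These are matches of letters and do not show binding.

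Il2 was the most abundant member. Replicates 1 to 4 held 1096, 1051, 969.9 and 942 TPM (1015 ± 71.5, SD, n = 4). It was highest in replicate 1 and lowest in replicate 4, and all 4 values lay above every value of every other member. Among protein-coding genes it ranked 89th by mean TPM, above 99.6% of them. Il2 (ENSMUSG00000027720.7, mm10, chromosome 3, 37120523 to 37125959, minus strand) has a single annotated transcript, and its value rests on 15454 to 29931 counts per library.

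Il15 (ENSMUSG00000031712.10, chromosome 8, 82331632 to 82403222, minus strand) was at the other end. It had 13, 25, 6 and 9 counts in replicates 1 to 4, or 0.343, 0.685, 0.191 and 0.143 TPM (0.340 ± 0.245, and 0.226 ± 0.104 without replicate 2). No library reached 1 TPM, and replicate 2 was the highest. The exact 95% Poisson interval of replicate 2 (0.443 to 1.01 TPM) did not overlap that of replicate 3 (0.0699 to 0.415 TPM) or of replicate 4 (0.0655 to 0.272 TPM), counting error alone being covered. Myeloid cells are a known source of IL-15. Of the 6 macrophage and monocyte genes 1 reached 1 TPM in every library (Adgre1, 3.21 ± 0.525 TPM), against 49.4% of protein-coding genes. Cd14 had 3, 14, 18 and 46 counts in replicates 1 to 4, and Mertk had 3 in each. Lyz2, Csf1r and Itgam had 1, 8 and 1 counts over all 4 libraries. In bulk RNA, fewer cells of a type and less RNA per cell cannot be told apart. Their part in the Il15 level was not tested. Within libraries, Il2 minus Il15 was 9.58 ± 0.20 on the log2(TPM + 1) scale, positive in 4 of 4 libraries. With a pseudocount of 0.1 it was 11.32 ± 0.68, since Il15 lies below the pseudocount of 1.

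The 3 chains of the IL-2 receptor stood at nearly the same level. The alpha chain gene Il2ra (ENSMUSG00000026770.5, chromosome 2, 11642807 to 11693193, plus strand) measured 533, 501, 557 and 516 TPM across replicates 1 to 4. The beta chain gene Il2rb (ENSMUSG00000068227.8, chromosome 15, 78480553 to 78495066, minus strand) measured 532, 520.3, 578 and 500.0 TPM. The gamma chain gene Il2rg (ENSMUSG00000031304.18, chromosome X, 101264378 to 101268255, minus strand) measured 572, 533, 577 and 549 TPM. The 3 ranges overlap, and in each gene replicate 3 was the highest library. Il2rg exceeded Il2ra in 4 of 4 libraries, by little: Il2ra minus Il2rg was -0.08 ± 0.02 on the log2 scale, while Il2ra minus Il2rb was -0.01 ± 0.05 and changed sign between libraries (exact two-sided sign-flip p = 0.5, adjusted p = 0.5 over 12 pairs). Il2rb minus Il2rg was -0.07 ± 0.06, negative in 3 of 4 libraries.

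**Figure D1:**
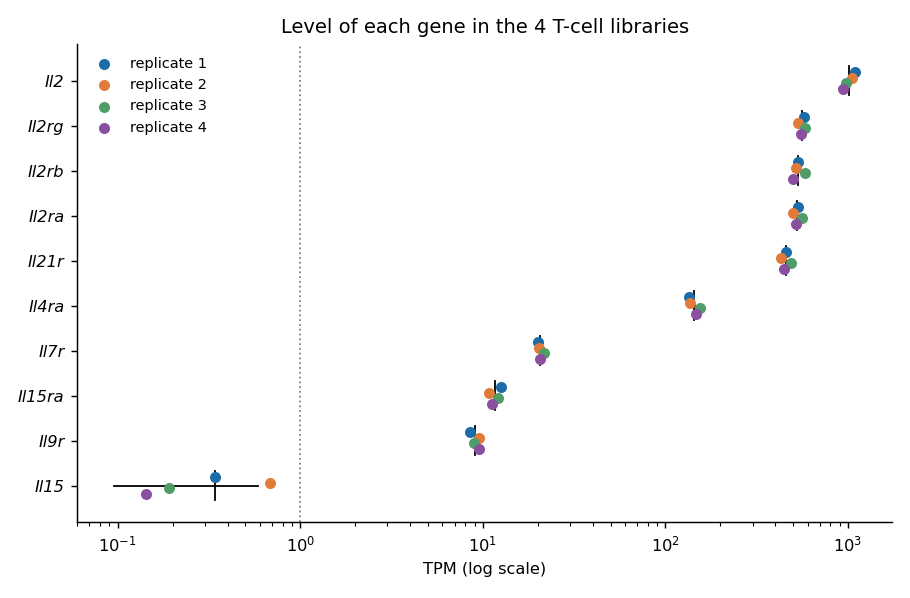
Level of each of the 10 genes in TPM (log axis) in the 4 libraries, ordered by mean; each point is a library, the vertical bar the mean and the horizontal bar the SD (n = 4), and the dotted line marks 1 TPM. Il2 lies near 1015 TPM, Il2rg, Il2rb and Il2ra lie between 500.0 and 578 TPM, and only Il15 lies below 1 TPM.

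That closeness rests on the gene lengths used. The count tables give the union of all exons, 5711 bases for Il2ra, 2785 for Il2rb and 2387 for Il2rg, and a union that holds alternative exons makes a gene look scarcer. With the principal coding transcript of each gene as length, chosen after seeing the data, Il2ra stood at 471 ± 23.3, Il2rb at 381 ± 25.1 and Il2rg at 551 ± 21.99 TPM. Il2rb over Il2rg was then 0.691 ± 0.0298 in place of 0.955 ± 0.0412. The counts stayed those of all exons, so fragments from outside the principal transcript remain in these values and in their ratios. This choice changes the lengths of all genes and so rescales every TPM. Il2, at 1144 bases under both, fell from 1015 to 701 TPM. Ratios of genes within a library are free of that rescaling, while levels are not. A same-strand gene model, Gm20489, shares 728 of the 2387 exon bases of Il2rg (30.5%) and itself had 0 counts in all libraries. The counting command set no option to keep fragments that overlap more than 1 gene, so fragments in those exons can be missing from Il2rg. Scaled to exon bases that no other gene on the strand shares, 1659 for Il2rg, its level was 794 ± 29.4 TPM and Il2rb over Il2rg was 0.664 ± 0.0286. No other member shared exon bases with a gene on its own strand. Il4ra shares 571 bases with the antisense model Gm44876, which also had 0 counts.

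**Figure D2:**
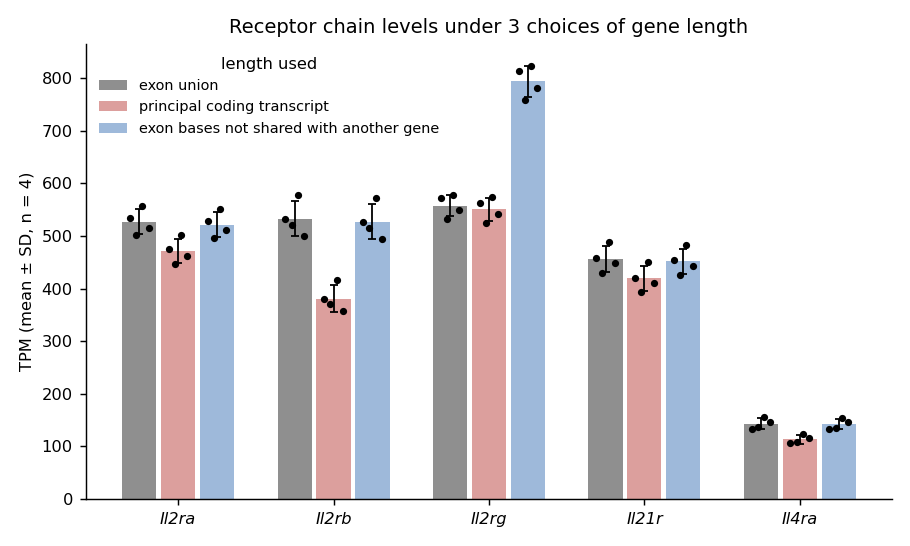
Mean TPM ± SD (n = 4, points are libraries) of the 5 most abundant receptor chain genes under 3 choices of length. These are the exon union of the count tables, the principal coding transcript, and exon bases that no other gene on the same strand shares. With the exon union Il2ra, Il2rb and Il2rg stand at 527, 533 and 558 TPM, with the principal transcript at 471, 381 and 551 TPM, and with unshared bases Il2rg stands apart at 794 TPM. Each choice keeps the same counts and rescales the TPM of all genes, so bars compare between genes within a choice.

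Il2rg is X-linked. Whether its level moves with the Xist level given above was not tested.

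Of the chains that give the other family receptors their specificity, Il21r was abundant. The IL-21 receptor gene Il21r (ENSMUSG00000030745.9, chromosome 7, 125603429 to 125633570, plus strand) stood at 459, 430.3, 488 and 448 TPM, below every value of the IL-2 receptor chains with the exon union as length. With principal transcripts Il21r (421, 394, 451 and 411 TPM) exceeded Il2rb (379.7, 371, 416 and 357 TPM) in each of the 4 libraries. The IL-4 receptor alpha gene Il4ra (ENSMUSG00000030748.9, chromosome 7, 125552120 to 125579474, plus strand) stood at 134, 137, 155 and 147 TPM. Il21r was 3.19 ± 0.165 times as high as Il4ra within libraries, and Il4ra minus Il21r was -1.67 ± 0.07 on the log2 scale, negative in 4 of 4.

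The receptors for IL-7, IL-15 and IL-9 were much scarcer. The IL-7 receptor alpha gene Il7r, a marker of naive and memory T cells, stood at 20.03, 20.4, 21.7 and 20.4 TPM (ENSMUSG00000003882.4, chromosome 15, 9506161 to 9529876, minus strand). Il15ra stood at 12.6, 10.8, 12.1 and 11.3 TPM (ENSMUSG00000023206.16, chromosome 2, 11705290 to 11734317, plus strand). Il9r stood at 8.46, 9.46, 8.88 and 9.51 TPM (ENSMUSG00000020279.10, chromosome 11, 32187541 to 32200279, minus strand). The 3 ranges do not overlap. Il2ra was 25.5 ± 0.857 times as high as Il7r, and Il7r minus Il9r was 1.10 ± 0.09 on the log2 scale. With principal transcripts as lengths Il15ra (22.4 ± 1.58 TPM) exceeded Il7r (14.4 ± 0.558 TPM), so the order of these 2 genes depends on the length used. For Il15ra that length was 1600 bases in place of 4446, while all counts of the exon union were kept. Mast cells also carry the IL-9 receptor. Of the 4 mast cell genes listed, Kit had 19, 52, 36 and 90 counts in replicates 1 to 4, Cpa3 had 6 counts in replicate 4 and 0 in the others, and Fcer1a and Mcpt4 had 0 counts in all libraries. Their part in the Il9r level was not tested.

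By mean TPM with the exon union as length the order was Il2, Il2rg, Il2rb, Il2ra, Il21r, Il4ra, Il7r, Il15ra, Il9r and Il15. In it, 7 of the 9 neighbouring pairs had ranges that did not overlap. The 2 that did were Il2rg with Il2rb and Il2rb with Il2ra. With principal transcripts Il2rg (525 to 574 TPM) lay above Il2ra (447 to 502 TPM). Il21r (394 to 451 TPM) then overlapped both Il2ra and Il2rb (357 to 416 TPM). As shares of the summed TPM of the 8 receptor chains, Il2rg took 24.7 ± 0.475%, Il2rb 23.6 ± 0.649%, Il2ra 23.3 ± 0.144%, Il21r 20.2 ± 0.211% and Il4ra 6.34 ± 0.332%, while Il7r, Il15ra and Il9r took 0.914 ± 0.0270%, 0.518 ± 0.0244% and 0.403 ± 0.0367%. The 5 chains that pair directly with the gamma chain (Il2rb, Il4ra, Il7r, Il9r and Il21r) summed to 1153, 1117, 1251 and 1125 TPM in replicates 1 to 4, which was 2.08 ± 0.0651 times the Il2rg level. That ratio was 1.70 ± 0.0513 with principal transcripts and 1.45 ± 0.0452 with unshared exon bases, above 1 in every library under each.

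With 4 libraries the exact two-sided sign-flip test cannot go below p = 0.13 (rounded). Of the 12 pairs compared, 9 reached it (adjusted p = 0.167), so no pair could pass a threshold of 0.05 and the differences are given by their size, SD and sign. Il2ra minus Il15ra was 5.38 ± 0.05 on the log2 scale, or 4.33 ± 0.06 with principal transcripts.

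Of the 10 members, 9 reached 1 TPM in every library, against 49.4% of protein-coding genes. The median of mean TPM was 299.7 over the 10 members and 1.21 over all protein-coding genes. Il7r and Il2rg varied least (highest over lowest library 1.08 for each, coefficient of variation 3.46% and 3.69%), and Il2 varied most among the 9 (1.16, 7.04%). The median ratio of highest to lowest library was 1.13 over these 9 genes, chosen in part by the count filter. It was 1.23 over all 13681 genes tested and 1.18 over the 9127 of them at least as abundant as Il9r. Il9r is the lowest of the 9, so neither set is matched to the members in level. An edgeR test of whether a gene varied between libraries beyond genes of its abundance called 0 of the 9 (0 at an unadjusted p under 0.05, and 0 as DESeq2 dispersion outliers), where 0.687% of all genes were called, so that 0 of 9 is near the background. An unadjusted edgeR p under 0.05 was found for 959 of the 13681 genes tested. The smallest unadjusted p among the 9 members was 0.493, for Il2 (edgeR adjusted p = 0.9999). Il15 did not pass the filter on low counts, and an edgeR fit without the filter did not call it either (edgeR adjusted p = 0.9999).

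**Figure D3:**
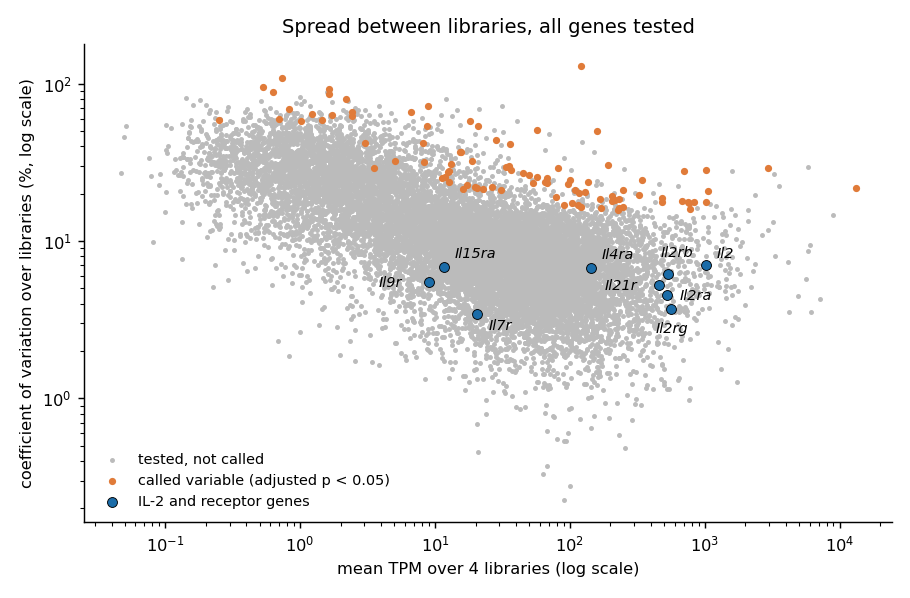
Coefficient of variation over the 4 libraries against mean TPM (both axes log) for the 13681 genes tested; orange points are the 94 genes called variable and blue points the 9 members that passed the filter. The blue points lie between 3.46% and 7.04% and the orange points between 15.7% and 130.2%.

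The position of the members in the genome was not used to choose them, and 2 pairs are direct neighbours on the same strand. Il2ra and Il15ra lie 12096 bases apart, and Il2ra was 45.2 ± 1.83 times as high as Il15ra (21.04 ± 0.855 times with principal transcripts). Il4ra and Il21r lie 23954 bases apart, and there the downstream gene was the higher. Fbh1, a helicase gene on the far side of Il15ra, stood at 73.4 ± 2.61 TPM, between the levels of Il2ra and Il15ra, and Gm17490, on the far side of Il2ra, had 0 counts. Nsmce1 and Gtf3c1, which flank Il4ra and Il21r, stood at 204 ± 17.3 and 124 ± 13.9 TPM. Upstream of Il2, at a distance of 96799 bases, lies Il21, which encodes the ligand of Il21r. Il21 had 0, 3, 1 and 12 counts in replicates 1 to 4 (0.0328 ± 0.0360 TPM), beside 15454 or more Il2 counts in each. Adad1, whose span overlaps Il2 on the opposite strand without shared exons, had 8 counts in all. On the other side of Il2, 4932438A13Rik stood at 16.1 ± 3.46 TPM.

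**Figure D4:**
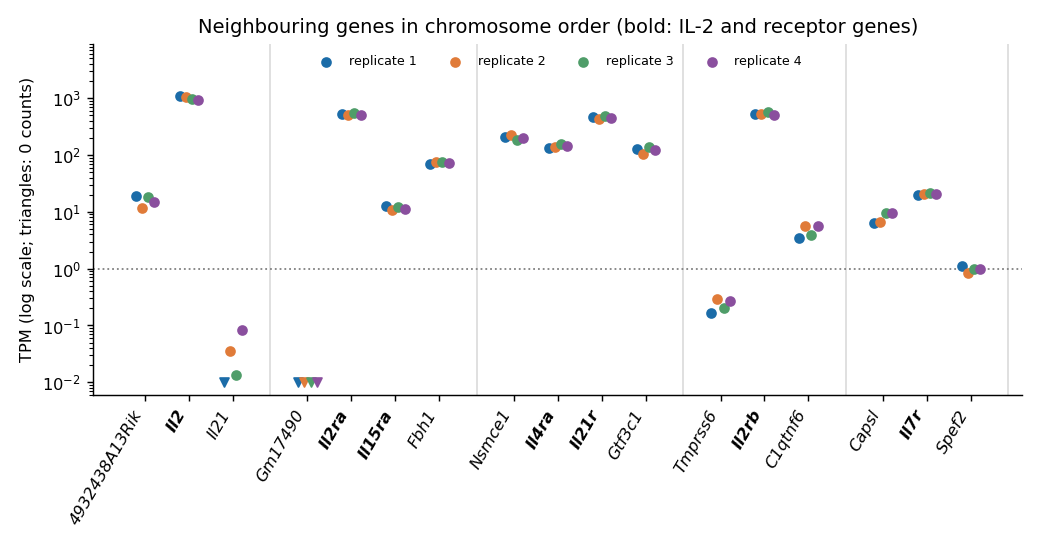
TPM (log axis) of members, in bold, and of the nearest protein-coding genes on either side, in chromosome order; each point is a library and triangles mark 0 counts. Il2 at 1015 TPM stands beside Il21 at 0.0328 TPM, and Il2ra at 527 TPM beside Il15ra at 11.7 TPM, whereas Il4ra and Il21r are both abundant.

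Il2rb lay between Tmprss6 (0.233 ± 0.0575 TPM) and C1qtnf6 (4.70 ± 1.13 TPM), both far below it. Il2rg lay 385 bases from Gm614 (5.64 ± 2.74 TPM) and 5774 bases from the Mediator gene Med12 (100.4 ± 15.7 TPM). Il7r was flanked by Capsl (8.03 ± 1.82 TPM) and Spef2 (0.978 ± 0.1004 TPM). Il9r was itself lower than both neighbours, Nsg2 (28.6 ± 0.855 TPM) and the splicing gene Snrnp25 (117 ± 23.8 TPM), and so was Il15, between Inpp4b (95.7 ± 10.4 TPM) and Zfp330 (43.5 ± 2.95 TPM). By the root-mean-square difference of log2 TPM over the 4 libraries, the protein-coding genes most like Il2 in level were Rpl3 (0.105), Eef1g (0.114) and Fth1 (0.122). Those most like Il2ra were Sf3b2 (0.0321), Il2rb (0.0436) and Hdgf (0.0457).

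The other ligands of the family were scarce. In a list of 6, 1 gene reached 1 TPM in every library, against 49.4% of all protein-coding genes. This gene was Il13, at 25.5, 38.1, 25.02 and 31.6 TPM. IL-13 binds a receptor of Il4ra with Il13ra1 and TSLP one of Il7r with Crlf2, neither of which holds the gamma chain. Il9 stood at 0.556, 1.73, 0.804 and 2.35 TPM and Il4 at 1.55, 0.656, 0.936 and 0.997 TPM, on either side of 1 TPM in both. Tslp stood at 1.32, 0.383, 0.887 and 0.318 TPM. Il7, which stromal cells make, had 0, 6, 2 and 1 counts. The list median was 0.881 TPM.

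Partner chains outside the family differed. Crlf2, the TSLP receptor chain that pairs with Il7r, stood at 67.7, 70.8, 64.2 and 64.4 TPM, above Il7r itself in every library. Il13ra1, which completes the IL-13 receptor with Il4ra, stood at 0.369, 0.234, 0.193 and 0.301 TPM. Il13ra2, a decoy receptor, had 0 counts in all libraries, which allows at most 0.0944 TPM in a library at 3 counts. Il4ra minus Il13ra1 was 6.82 ± 0.17 on the log2 scale, positive in 4 of 4, and 8.60 ± 0.37 with a pseudocount of 0.1.

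Most listed genes of the signalling chain downstream were detected. Of 16 receptor-proximal genes 15 reached 1 TPM in every library, against 49.4% of all protein-coding genes. The adaptor gene Gab2 was the exception (0.609, 0.913, 1.19 and 1.03 TPM). The kinase genes Jak1 and Jak3, whose products bind the ligand-specific or beta chain and the gamma chain, stood at 183 ± 12.3 and 182 ± 10.9 TPM, a log2 difference of 0.01 ± 0.02 that changed sign between libraries. With unshared exon bases as length that difference was -0.10 ± 0.02. Stat5a stood at 140 ± 12.0 TPM and Stat5b at 130 ± 10.1 TPM, Stat5a being higher in 4 of 4 libraries by 0.10 ± 0.05 on the log2 scale, or by 0.88 ± 0.05 with principal transcripts as lengths. The most abundant of this list were Stat6, which IL-4 activates, at 335 ± 19.1 TPM, Pik3cd at 286 ± 19.5 TPM and Akt1 at 251 ± 17.8 TPM.

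All 6 feedback inhibitors were detected, against 49.4% of all protein-coding genes. The phosphatase genes Ptpn6 and Ptpn2 stood at 605 ± 21.3 and 48.4 ± 2.45 TPM, and the STAT5-induced inhibitor genes Cish and Socs1 at 143 ± 8.61 and 106 ± 7.45 TPM. Socs2 stood at 8.65 ± 1.01 TPM and Socs3 at 4.66 ± 0.652 TPM.

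Of 13 genes known to respond to IL-2 or STAT5, 12 were detected, against 49.4% of all protein-coding genes. The growth regulator gene Myc stood at 491 ± 30.6 TPM, the survival gene Bcl2l1 at 456 ± 16.1 TPM and the kinase gene Pim2 at 365 ± 28.1 TPM. The cytotoxic protease gene Gzmb stood lower, at 12.8 ± 0.935 TPM, and Foxp3, the regulatory T-cell factor gene, at 2.36, 3.54, 3.49 and 1.58 TPM. Prdm1, which encodes a repressor of Il2, was the exception and had 0, 4, 4 and 7 counts.

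Of 15 regulators of Il2 transcription, which include Prdm1 as well, 14 were detected, against 49.4% of all protein-coding genes. Junb, an AP-1 subunit gene, led at 1425 ± 68.9 TPM, followed by the zinc-finger factor gene Ikzf1 at 383 ± 32.8 TPM and the NF-kappaB gene Nfkb1 at 327 ± 31.5 TPM. The NFAT genes Nfatc1 and Nfatc2 stood at 187 ± 17.2 and 47.5 ± 6.15 TPM. All 6 regulators of Il7r were detected, beside the same 49.4%. Ets1 stood at 116 ± 9.39 TPM, the repressor gene Gfi1 at 101 ± 2.09 TPM and Foxp1 at 79.1 ± 8.72 TPM. Gabpa stood at 52.7 ± 2.24 TPM, the activator gene Foxo1 at 37.1 ± 2.90 TPM and Runx1 at 23.8 ± 2.31 TPM. The medians of mean TPM were 128 over the receptor-proximal list, 77.3 over the feedback list, 107 over the response list, 47.5 over the Il2 regulators and 65.9 over the Il7r regulators. None of the genes of these lists was called variable by edgeR with a dispersion trend over abundance, where 0.687% of all genes were called. With a common dispersion Foxp3 was called (edgeR adjusted p = 0.00175), among 617 of the 13681 genes tested. With the trend the smallest adjusted p, 0.189, was that of Fosl2 (edgeR, 37.4 ± 6.48 TPM). An unadjusted edgeR p under 0.05 was found for 2 of 12 response genes tested (Pim1 and Foxp3) and 2 of 14 Il2 regulators (Fosl2 and Crem). In the ligand list above it was found for 1 of 2 genes tested (Il13). It was found for 0 of 16 receptor-proximal genes, 0 of 6 feedback inhibitors, 0 of 6 Il7r regulators and 0 of 2 partner chains. Of all 13681 genes tested, 959 had such a p.

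**Figure D5:**
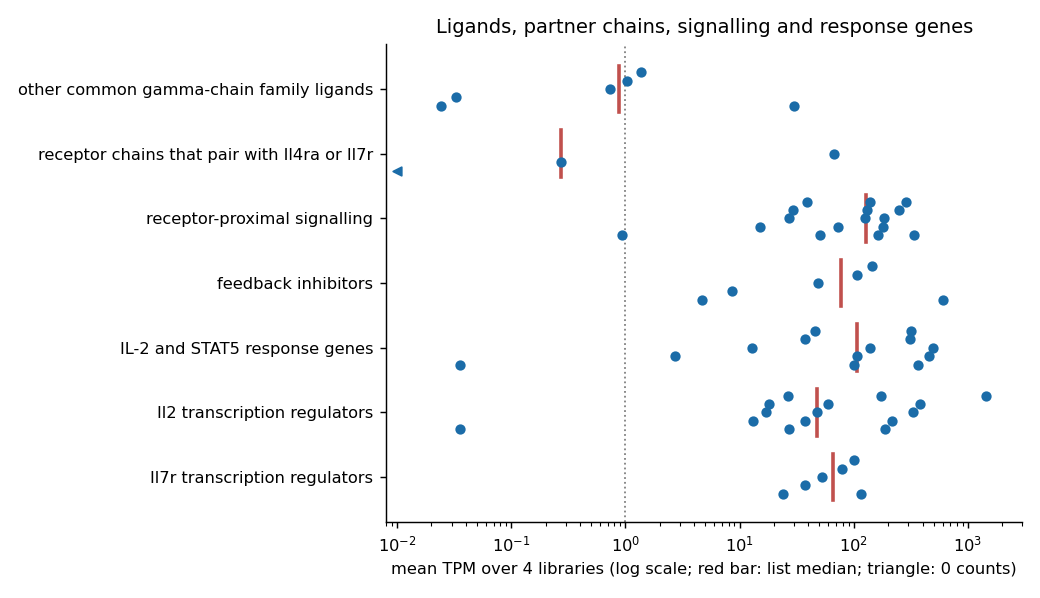
Mean TPM over the 4 libraries (log axis) of each gene in 7 lists around the family; each point is a gene, red bars are list medians, the triangle is a gene with 0 counts and the dotted line marks 1 TPM. Medians run from 47.5 to 128 TPM for signalling, feedback, response and regulator genes, against 0.881 TPM for the other ligands and 0.274 TPM for the partner chains.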

How the data were processed

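Gene counts of 4 libraries were deposited by the authors. Per the file headers, fragments over exons were counted per gene with featureCounts 1.4.6-p4 on STAR alignments, as pairs with both ends mapped and reverse-stranded, against GENCODE M13; the aligner version is not given in the sources used here. Symbols and gene types came from GENCODE M21, which matched 50376 of 50600 genes. TPM was computed from the deposited counts and exon lengths, and a gene was called detected at 1 TPM or more in every library. Libraries held 58522696, 53569919, 49613182 and 94222415 counts in replicates 1 to 4. Intervals and floors (3 counts) cover counting error only.

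Variation between libraries was tested with edgeR 4.0.16 after its filter on low counts, with a dispersion trend over abundance, on 13681 genes with Benjamini-Hochberg adjustment at 0.05; DESeq2 1.42.0 dispersion outliers were the alternative. The procedure was tested on simulated data. Pairs were compared by exact sign-flip tests on log2(TPM + 1), using Python 3.11.15 and scipy 1.17.1. Genes named were all members, the genes of the pairs, the nearest protein-coding neighbours and Xist. The 3 genes closest in level to Il2 and to Il2ra were added. Outside the marker lists, all genes of lists under 7 genes and at least the 3 most abundant of longer ones were named. Of the marker lists only some genes were named. Gzmb, Foxp3, Nfatc1, Nfatc2 and the genes with an unadjusted p under 0.05 were picked after their values were seen. The members and lists were chosen with earlier results of these data known. The 2 alternatives for gene length were added after seeing the data and used the same counts.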

Additional observations from a re-analysis of the deposited data

Results flagged for a closer look

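In 6 of 93 measures looked at, 1 library lay far from the other 3, with a gap to its nearest neighbour above 0.83 of the range (Dixon's 95% value for 4 samples); chance flags about 1 in 20. Il2 minus Il15 was 9.29 in replicate 2, against 9.67 to 9.69 on the log2(TPM + 1) scale in the others. Replicate 2 is the library with 25 Il15 counts. Il2ra minus Il15ra was 5.30 in replicate 1, against 5.40 to 5.41 in the others. Stat5b stood at 145 TPM in replicate 3 and Gzmb at 14.2 TPM in replicate 4, each above the other libraries. Gfi1 stood at 98.1 TPM in replicate 1, below the others. Prdm1 was at 0 TPM in replicate 1, with 4 to 7 counts in the others, so that it is close to the floor of 3 counts.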

How the results depend on the processing

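No pairing of samples between groups was possible because the labels give 1 group. The pair differences compare genes within each library. The 9 detected members, and the absence of members called variable, held under each alternative run. The count of all genes called variable was 94, against 617 with a common dispersion, 43 as DESeq2 dispersion outliers and 38 to 87 with 1 library left out (46, 38, 87 and 46 without replicates 1, 2, 3 and 4). Lowering the detection level to 0.5 TPM gave 3 detected genes of the ligand list (Il13, Il4 and Il9), in place of 1 (Il13). The IL-13 receptor does not hold the gamma chain. Gene length moved more. Il2ra minus Il2rb was 0.31 with principal transcripts, and Jak1 minus Jak3 was -0.10 with unshared exon bases, both opposite in sign to the values above.

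Shares of the receptor sum, in the order Il2ra, Il2rb, Il2rg, Il4ra, Il7r, Il9r, Il15ra and Il21r, were 35.99, 17.7, 15.9, 10.3, 0.792, 0.538, 0.621 and 18.1% of counts, which are not corrected for length. They were 23.8, 19.2, 27.8, 5.71, 0.730, 0.351, 1.13 and 21.2% with principal transcripts, and 21.1, 21.3, 32.1, 5.72, 0.825, 0.364, 0.467 and 18.2% with unshared exon bases. Depth limits Il15, Il21, Il7, Tslp and Prdm1, each with 25 counts or fewer per library. Il4 (13 to 34 counts), Il9 (5 to 35) and Il13ra1 (10 to 31) also rest on few counts.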
